A study of Mus musculus with 2 samples.

Results

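The Eph receptor kinases were described by 9 genes of the deposited table, Epha1, Epha2, Epha4, Epha7, Ephb1, Ephb2, Ephb3, Ephb4 and Ephb6, taken by gene symbol out of 17817 measured genes. RNA sequencing had been run on 2 cultures of mouse embryonic stem cells (mESCs), labelled as strain 129SV/C57BL/6 and 10 to 12 passages old, and asked which transcripts differ in level when Setd2 is missing. The Setd2 knockout culture gave 1 library with 52041677 read equivalents over genes, and the wild-type culture gave 1 library with 56129838. A read equivalent is 76 sequenced bases on a gene, and levels are read equivalents in 1000000 of the library (CPM). Both cultures had grown on feeder cells and were freed of most of them by plating on gelatin. Setd2 is the methyltransferase that places trimethylation on lysine 36 of histone H3 in transcribed genes. The sources used here do not give how the gene was disrupted or whether the knockout line is a clone. Neither genotype had a replicate, so no p-value was computed, and every difference is one between these 2 libraries. Intervals are 95% intervals that cover counting error only and not the spread between cultures. Sequenced reads are not independent molecules where no molecular identifier was used, so the intervals may be too narrow even for counting error.

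Eph receptors are the largest family of receptor tyrosine kinases. They bind ephrins, ligands that are themselves held on the surface of the neighbouring cell, so that contact between cells passes a signal into both of them, forward through the receptor and in reverse through the ephrin. The A-class receptors mainly bind the lipid-anchored ephrin-A ligands and the B-class receptors mainly bind the transmembrane ephrin-B ligands. In early embryos and stem cell cultures the family is known for cell sorting, boundary formation and control of adhesion.

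The receptors were compared first in the stretch that makes them kinases. The coding stretch of 24 bases for the catalytic loop is shown because it separates the catalytically active receptors from the inactive Ephb6. The sequences are from the GENCODE annotation of the NCBIM37 (mm9) assembly, on the coding strand, and the capitals mark the codon of the catalytic aspartate or its aligned counterpart.
Epha1, chr6:42311375-42311398, minus strand: catagaGACctggctgccaggaac
Epha2, chr4:140878211-140878234, plus strand: caccggGACctggccgcccgcaac
Ephb2, chr4:136215577-136215600, minus strand: caccgtGACcttgctgctcgaaac
Ephb4, chr5:137811034-137811057, plus strand: caccgaGACctggctgctcggaac
Ephb6, chr6:41568663-41568686, plus strand: caccgaGCActctcggcccgaagt

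The loop pattern of active tyrosine kinases was found in 8 of the 9 members, whatever codons they used for it. Ephb6, a receptor known to lack kinase activity, did not hold it, and its marked codon does not code for aspartate. Among all 14 Eph receptors with a row in the table, Epha10, known for the same lack of activity, was the other of the 2 without the pattern. Over their whole coding sequences the 36 pairs of members shared between 59.3% and 73.5% of aligned bases, with Ephb1 and Ephb2 the most alike. Of 20 exon windows of 76 bases in each member, 1 was shared with another place in the genome for Epha1, 1 for Epha2 and 0 for each of the other 7.

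The libraries were checked against their labels before the members were read. Setd2 (chr9:110451132-110521137, mm9) was at 174 CPM in knockout cells and 452 CPM in wild-type cells. The pluripotency genes Pou5f1 and Sox2 were at 544 and 417 CPM in knockout cells, against 558 and 458 CPM in wild-type cells, and Nanog was at 310 CPM against 221 CPM. Of 12 such genes 10 had a lower level in knockout cells, and Zfp42, on chromosome 8, was at 68.1 CPM in knockout and 283 CPM in wild-type cells. A mean of 1 CPM over both libraries served as a floor. Of the 13523 genes that reached it, 238 (1.76%) were higher by 2-fold or more in knockout cells and 285 (2.11%) lower. The median log2 ratio was 0.05, on the scale of log2 of CPM with a pseudocount of 0.5 CPM, which understates ratios of low genes. Genes of chromosome 8 had a median of -0.35, and the 5 genes of chromosome Y over the floor had a median of 6.20, with 328 CPM in knockout cells and 0.817 CPM in wild-type cells in sum. No Eph receptor of the table lies on either chromosome. With 1 library of each genotype, these chromosome differences cannot be told apart from the loss of Setd2. Their part in the receptor levels was not tested.

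A pair of receptor genes moved past 2-fold, in opposite directions. Epha2, the most abundant Eph receptor in both libraries, was lower in knockout cells, and Epha1 was higher. In all, 8 of the 9 members passed the floor of 1 CPM, with 1 higher, 1 lower and 6 within 2-fold. The share of all genes past 2-fold in either direction was 3.87%. At 1.5-fold, 1 member was higher and 2 lower, against 7.42% and 6.77% of all genes (14.2% together). The median log2 ratio of the 8 members was -0.06, and 3 of them were above 0 and 5 below 0.

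**Figure D1:**
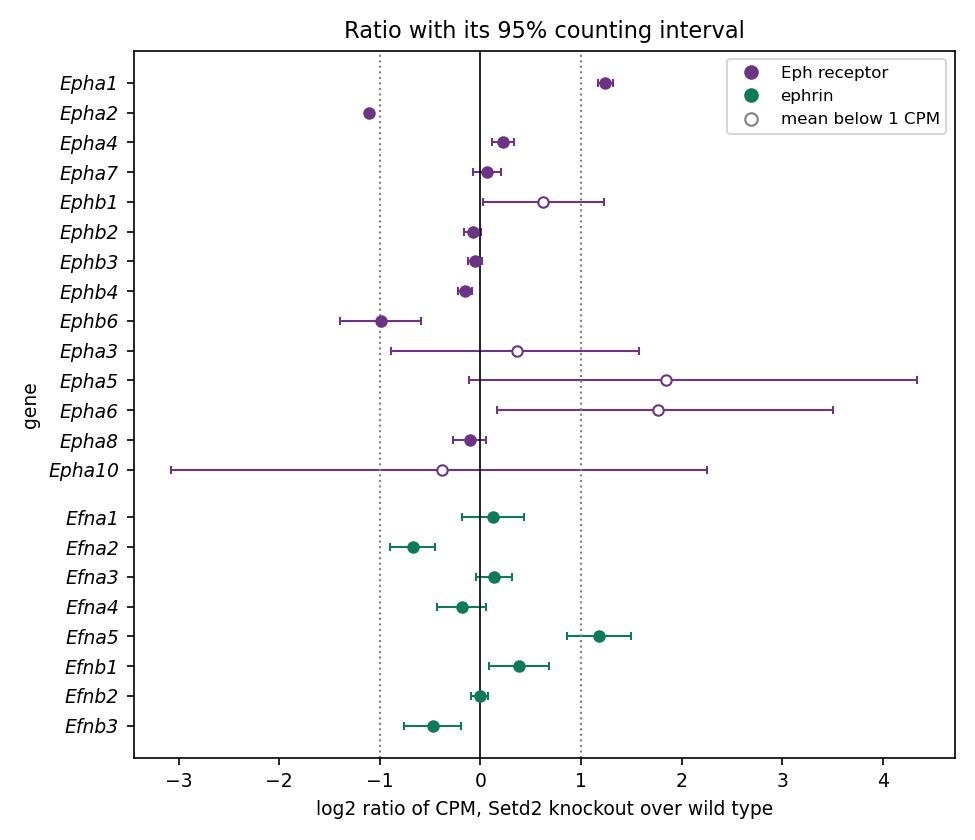
Log2 ratio of CPM without a pseudocount, Setd2 knockout over wild type, for 14 Eph receptor genes (purple) and 8 ephrin genes (green), with 95% counting intervals as bars; dotted lines mark 2-fold and open circles genes with a mean below 1 CPM. Epha1, at 2.37-fold, and Epha2, at 46.6% of the wild-type level, lie past 2-fold with narrow intervals. Efna5, at 2.26-fold, Epha5, at 3.60-fold, and Epha6, at 3.39-fold, are also past it, with wider intervals. Ephb6, at a ratio of 0.505, lies just inside. The widest intervals belong to receptors with very few reads.

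Epha2 (chr4:140857155-140885293, mm9) is an A-class receptor that is also known as an epithelial growth regulator. The deposited log2 value was 14.19 in knockout cells and 15.40 in wild-type cells, which stand for 18734 and 43387 read equivalents. Its level was 360.0 CPM in knockout cells and 773 CPM in wild-type cells. The knockout level was 46.6% of that in wild-type cells (counting interval 45.8 to 47.4%), with a log2 ratio of -1.10. Among 42 receptor tyrosine kinase genes over the floor, Eph receptors included, 2 had a lower ratio, Fgfr3 and Pdgfra.

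Epha1 (chr6:42308486-42323267, mm9) is an A-class receptor known in skin and other epithelia. It had 4638 read equivalents in knockout cells and 2112 in wild-type cells, or 89.1 and 37.6 CPM. The knockout level was 2.37-fold the wild-type level (2.25 to 2.49), with a log2 ratio of 1.23. None of the other 41 receptor tyrosine kinase genes over the floor had a higher ratio. In the GENCODE annotation the exons of Epha1 overlap those of Zyx, on the opposite strand, by 160 bases, 4.89% of the exon length of Epha1. The annotation behind the counts was not known to be the same. In the deposited values the rows of Epha1 and Zyx do not overlap and lie 0.092 kb apart. The use of strand in the counting was not stated in the sources used either, so it cannot be told which gene was given reads of the 160 bases.

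Epha4 (chr1:77363760-77511663, mm9), a receptor known to bind ligands of both classes, was at 28.2 CPM in knockout cells and 24.1 CPM in wild-type cells. That is 1.17-fold, with an interval (1.09 to 1.26) that leaves out 1. Epha7 (chr4:28740295-28894649), which guides axons to their maps in the brain, was at 15.2 and 14.6 CPM in knockout and wild-type cells, and its interval (0.948 to 1.16) held 1. These A-class genes were thus close to their wild-type levels, unlike Epha1 and Epha2.

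The B-class receptors stood closer together than the A-class pair. Ephb4 (chr5:137791337-137815750), the receptor of venous endothelium that binds Efnb2, was at 52.8 CPM in knockout cells and 58.7 CPM in wild-type cells, a ratio of 0.900 (0.855 to 0.947). Ephb3 (chr16:21204868-21223377) and Ephb2 (chr4:136209525-136391850) position cells along the intestinal crypt. Ephb3 was at 65.5 and 67.9 CPM in knockout and wild-type cells, with a ratio of 0.965 (0.921 to 1.01). Ephb2 was at 39.2 and 41.4 CPM, with a ratio of 0.948 (0.893 to 1.01). The ratios of these 3 genes were all a little below 1, and only the interval of Ephb4 left out 1.

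Ephb6 and Ephb1 were the lowest of the 9. Ephb6 (chr6:41555481-41570506), the receptor without the catalytic pattern, had 79.0 read equivalents in knockout cells and 168.7 in wild-type cells, or 1.52 and 3.01 CPM. Its ratio was 0.505 (0.381 to 0.662), and its log2 ratio of -0.80 with the pseudocount stayed inside 2-fold. Ephb1 (chr9:101824460-102257023), known for routing retinal axons at the optic chiasm, had 60.0 and 42.0 read equivalents in knockout and wild-type cells. At 1.15 and 0.748 CPM it missed the floor, and its ratio of 1.54 had a wide interval (1.02 to 2.34).

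The 5 Eph receptors outside the 9 were mostly near the limit of detection. Epha8, which guides axons of the midbrain, was the exception at 10.4 CPM in knockout cells and 11.2 CPM in wild-type cells, with a ratio of 0.928 (0.825 to 1.04). Epha3, Epha5, Epha6 and Epha10 were below 0.3 CPM in both libraries, with at most 14.9 read equivalents. The interval of Epha5, from 10.0 read equivalents in knockout and 3 in wild-type cells, ran from 0.926 to 20.3. That of Epha6, from 14.9 and 4.75 read equivalents in knockout and wild-type cells, ran from 1.12 to 11.4 around a ratio of 3.39 and left out 1. Intervals as wide as these do not place the size of a difference. The row of Epha10 covers only 4.72 kb of a gene whose kinase coding stretch lies beyond it, so it measures a short annotated transcript.

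Set on a common scale, per kilobase of annotated exon, the family was dominated by a single gene. Epha2 was at 77.0 CPM per kilobase in knockout cells and 165 in wild-type cells. In the knockout library Epha1 followed at 27.2, then Ephb4 at 11.4, Ephb3 at 10.4, Epha4 at 4.46, Ephb2 at 3.11, Epha8 at 2.21 and Epha7 at 1.54 CPM per kilobase. In the wild-type library Ephb4 followed Epha2 at 12.7, then Epha1 at 11.5, Ephb3 at 10.8, Epha4 at 3.81, Ephb2 at 3.28, Epha8 at 2.38 and Epha7 at 1.47 CPM per kilobase. Ephb6 and Ephb1 came after these in both libraries. On this length the order differed at the top only in the place of Epha1, which stood above Ephb4 in knockout cells and below it in wild-type cells. The counting intervals of neighbours overlapped for Epha1 and Ephb3 in wild-type cells and among the 4 scarcest receptors in both, and for no other neighbours. The order also depends on the length used. By the longest annotated transcript, Ephb3 stood above Ephb4, at 13.8 and 12.2 CPM per kilobase in knockout cells and 14.3 and 13.5 in wild-type cells. Epha7 then stood above Epha8 in knockout cells, at 2.26 and 2.21, and below it in wild-type cells, at 2.16 and 2.38.

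**Figure D2:**
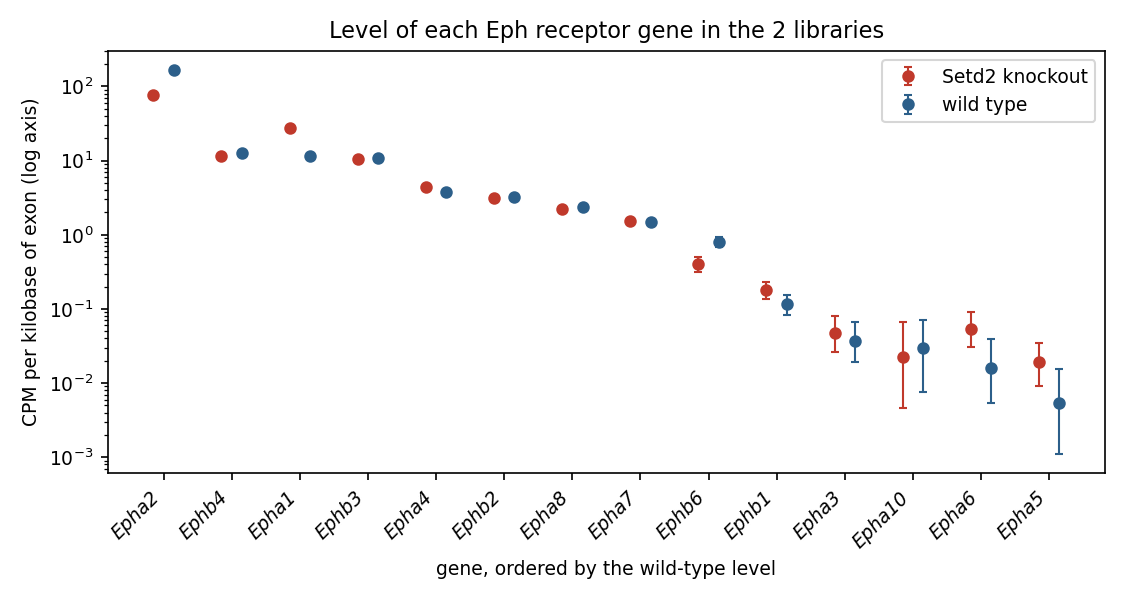
Level of 14 Eph receptor genes in CPM per kilobase of exon on a log axis, in the Setd2 knockout (red) and wild-type (blue) library, with 95% counting intervals as bars. Epha2 lies at 77.0 and 165 CPM per kilobase, Epha1 at 27.2 and 11.5, and the symbols of most other receptors nearly coincide.

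The summed Eph receptor level fell by 369 CPM in knockout cells, and Epha2 alone fell by 413 CPM. Over the 14 genes the sum was 664 CPM in knockout cells and 1033 CPM in wild-type cells, 64.3% of the wild-type sum (63.5 to 65.2%). Without Epha2 the sums were 304 and 259.7 CPM for knockout and wild type, 117% (114 to 120%). Without both Epha1 and Epha2 they were 215 and 222 CPM, 96.8% (94.3 to 99.3%). The 12 remaining receptors were close in sum, but the 2 A-class genes had been left out for their ratios in these same data. Such a sum also says little of scarce genes, such as Ephb6 at a ratio of 0.505.

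Per kilobase, Epha2 held 55.8% of the summed level in knockout cells and 77.9% in wild-type cells, while Epha1 held 19.7% and 5.42%. The ratio of Epha2 to Epha1 was 2.83 in knockout cells and 14.4 in wild-type cells. The 5 B-class receptors together were at 25.5 CPM per kilobase in knockout and 27.6 in wild-type cells. Their share of the family was 18.5% in knockout and 13.02% in wild-type cells, while their own summed level was 92.2% of that in wild-type cells.

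**Figure D3:**
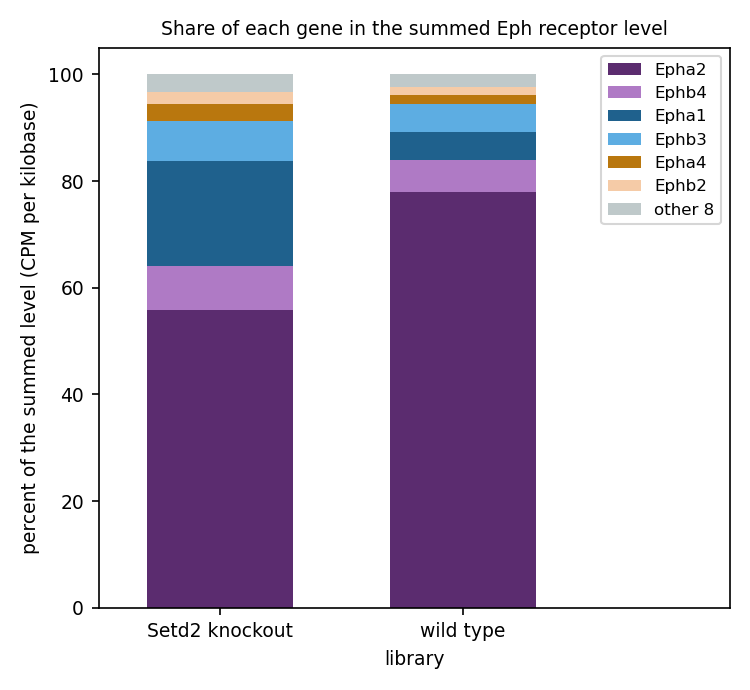
Percent of the summed Eph receptor level, in CPM per kilobase of exon, held by the 6 receptors with the highest wild-type level and by the other 8, in the Setd2 knockout and the wild-type library. The Epha2 block is 55.8% in knockout and 77.9% in wild-type cells, and the Epha1 block 19.7% and 5.42%.

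The genes beside Epha1 on chromosome 6 also had ratios above 0. All 8 nearest genes over the floor, 4 on each side and up to 972 kb away, had log2 ratios above 0, from 0.06 to 1.30, with a median of 0.42. Of all 13523 genes over the floor, 7624 were above 0, and the median over 640 genes of chromosome 6 was 0.10. Fam131b, 33.8 kb from Epha1, was at 19.99 CPM in knockout cells and 7.82 CPM in wild-type cells. The focal adhesion gene Zyx, whose row in the table ends 0.092 kb from that of Epha1, was at 70.2 and 45.3 CPM in knockout and wild-type cells. Without Fam131b the median of the other 7 was 0.39. These neighbours were looked up after the level of Epha1 was known.

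The genes around Epha2 and around Ephb6 lay on both sides of 0. The 8 neighbours of Epha2 ran from -0.47 to 0.32 with a median of -0.11, and 2 were above 0. Most thus lay on the same side of 0 as Epha2 itself. Those of Ephb6 ran from -0.34 to 0.71 with a median of 0.10, and 5 were above 0. Epha1 and Ephb6 lie on the same chromosome less than a megabase apart, with Casp2 and Clcn1 counted as neighbours of both, and their own ratios had opposite signs.

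**Figure D4:**
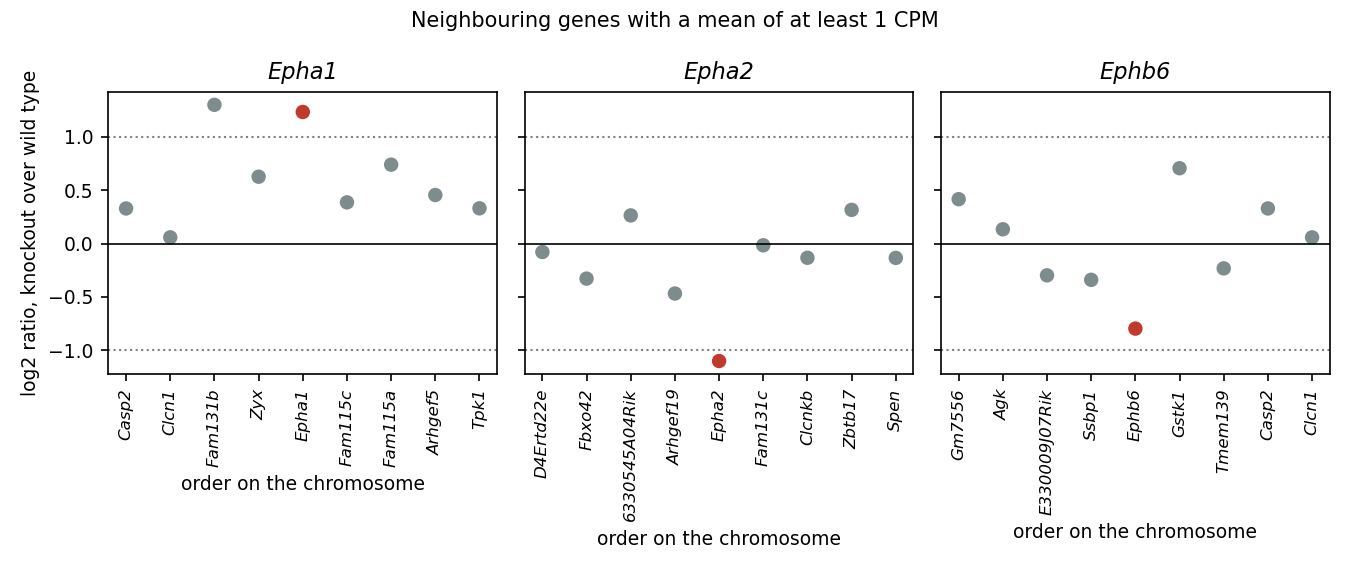
Log2 ratio, Setd2 knockout over wild type, of Epha1, Epha2 and Ephb6 (red) and of the 4 nearest genes on each side with a mean of 1 CPM or more (grey), in chromosome order and not to distance; dotted lines mark 2-fold. All 8 neighbours of Epha1 lie above 0, and those of Epha2 and Ephb6 lie on both sides of it.

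The 250 bases before the start of Epha1 and Epha2 are shown because these genes were furthest apart between the libraries. They are RefSeq windows on the GRCm38.p6 assembly, not the build of the levels, and the capitals mark GC boxes (GGGCGG, either strand) and the cyclic AMP response element TGACGTCA.
Epha1, chr6:42373269-42373518, minus strand: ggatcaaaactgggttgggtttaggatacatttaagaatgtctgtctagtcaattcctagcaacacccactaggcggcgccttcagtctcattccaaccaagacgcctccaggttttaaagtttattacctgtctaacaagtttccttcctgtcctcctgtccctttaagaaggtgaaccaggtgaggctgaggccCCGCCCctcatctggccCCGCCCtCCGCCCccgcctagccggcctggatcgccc
Epha2, chr4:141300971-141301220, plus strand: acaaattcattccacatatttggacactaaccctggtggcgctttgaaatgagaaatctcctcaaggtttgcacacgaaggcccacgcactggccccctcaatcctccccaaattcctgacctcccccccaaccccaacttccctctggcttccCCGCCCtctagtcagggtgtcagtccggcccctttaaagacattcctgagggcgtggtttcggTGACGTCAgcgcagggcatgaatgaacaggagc

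Epha1 held 3 GC boxes and Epha2 held 1, with 9 CG dinucleotides in each window. A GC box was found upstream of 7 of the 9 members and of 35.4% of 27025 genes with such RefSeq windows, counting a gene with a match in any of its windows. The cyclic AMP response element was found upstream of 1 member, Epha2, and of 1.77% of all genes. The TATA box TATAAA, the AP-1 motif TGANTCA and the E-box CACGTG were searched on both strands and matched 0 of the members, against 14.3%, 7.82% and 6.86% of all genes. A match describes letters in the window and not a bound site.

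The ephrins were at lower levels than the leading receptors and moved on both sides. All 8 ephrin genes passed the floor, with 1 at least 2-fold higher and 0 lower, against 1.76% and 2.11% of all genes. Their median log2 ratio was 0.05, the same to 2 decimals as that of all genes. Efnb2, the ephrin-B ligand of arterial endothelium and the main partner of Ephb4, was the most abundant at 8.86 CPM per kilobase in knockout and 8.89 in wild-type cells. It held 37.4% of the summed ephrin level in knockout and 36.3% in wild-type cells. Efnb2 lies on chromosome 8, whose genes were lower as a group, yet its ratio was 0.997 (0.940 to 1.06).

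Among the ephrin-A ligands, Efna5, which shapes retinal axon maps, was higher at 4.95 CPM in knockout cells and 2.19 CPM in wild-type cells, 2.26-fold (1.81 to 2.82). Its log2 ratio of 1.02 was just past 2-fold, and it was 0.97 with the median ratio of all genes set to 0, 0.96 with a trimmed mean, 0.99 by the upper quartile and 0.90 with a pseudocount of 1 CPM. Efna2, another ephrin-A ligand, was at 5.07 and 8.08 CPM in knockout and wild-type cells, a ratio of 0.627 (0.537 to 0.732). The intervals of Efna1 (0.879 to 1.35), Efna3 (0.967 to 1.24) and Efna4 (0.743 to 1.04) held 1. Of the ephrin-B ligands, Efnb1 had a ratio of 1.31 (1.06 to 1.61) and Efnb3 of 0.720 (0.590 to 0.878). Summed per kilobase, the 5 ephrin-A genes were at 12.6 and 13.3 CPM per kilobase in knockout and wild-type cells and the 3 ephrin-B genes at 11.0 and 11.2.

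On the scale with the pseudocount, genes of the listed proteins that bind the receptors or ephrins inside the cell stayed within 2-fold. Of 25 cytoplasmic partners, such as kinases and adaptors, 0 were past 2-fold, against 3.87% of all genes. Their median log2 ratio was 0.03. The members with the largest ratios were Anks1b at 0.95, the adaptor gene Grb10 at 0.86, the low molecular weight phosphatase gene Acp1 at 0.83 and Grip1, a scaffold for ephrin-B tails, at 0.82. All 4 ratios were above 0. Without the pseudocount Anks1b, at 3.33 and 1.48 CPM in knockout and wild-type cells, was past 2-fold, at 2.25-fold (1.72 to 2.96).

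Of 10 listed enzymes of ephrin shedding and receptor cleavage or dephosphorylation, 8 passed the floor and 0 of these were past 2-fold. The share of all genes was 3.87%, and the median log2 ratio of the 8 was -0.01. Mmp14, a membrane protease, was at -0.26, and the receptor phosphatase genes Ptprj and Ptprf were at -0.09 and -0.07.

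Other receptor tyrosine kinases gave a yardstick for the family. Of 33 such genes over the floor, 0 were at least 2-fold higher and 3 at least 2-fold lower. The shares of all genes were 1.76% and 2.11%, and the median log2 ratio of the 33 was 0.0030. The lower ones were Pdgfra at -1.50, Fgfr3 at -1.23 and Fgfr4 at -1.08, and the highest ratio was that of the VEGF receptor gene Flt1 at 0.90. The difference between the 2 families was not tested, since genes are not replicates.

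**Figure D5:**
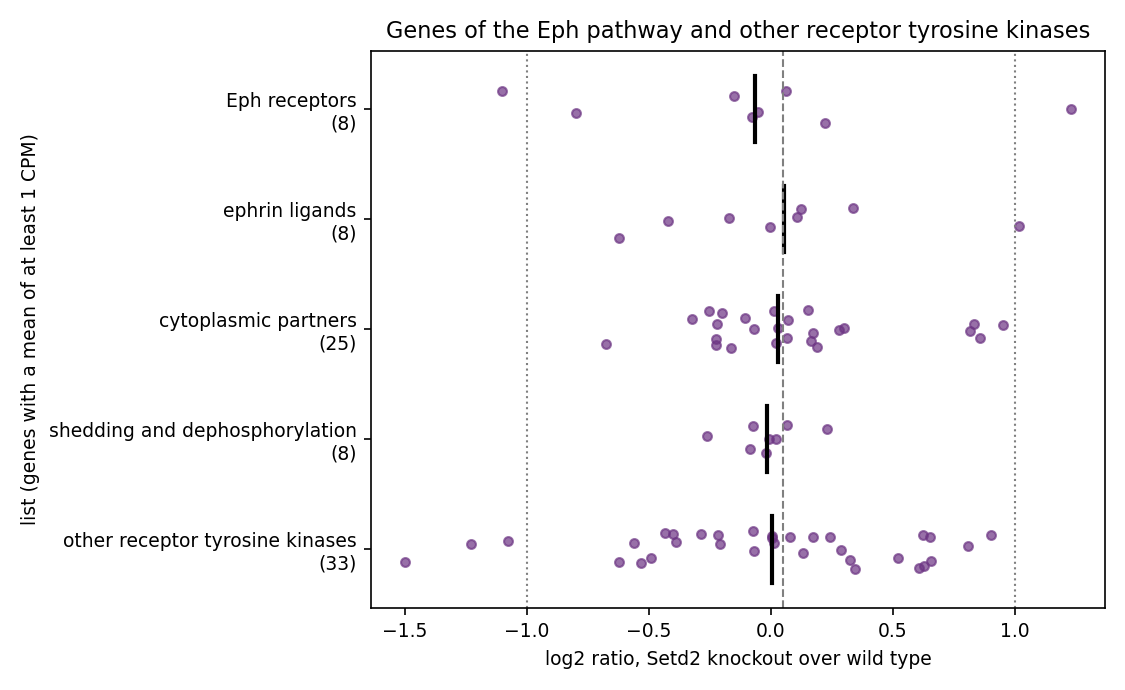
Log2 ratio, Setd2 knockout over wild type, of each gene with a mean of 1 CPM or more (points, spread vertically at random within a list) in the Eph receptor, ephrin, signalling and other receptor tyrosine kinase lists, with the list median (black bar), the median of all genes (dashed line) and 2-fold (dotted lines). The list medians lie between -0.06 and 0.05, and Epha1 and Efna5 are the points beyond 2-fold on the right.

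Markers of other cell types were read beside these levels. Primitive endoderm markers were lower in knockout cells, with 7 of 10 members over the floor at least 2-fold lower, against 2.11% of all genes. Their median was -1.36, with a summed level of 610 CPM in knockout and 892 CPM in wild-type cells. Without Lamb1, at 405 and 390 CPM, the other 9 were at 205 CPM in knockout and 503 CPM in wild-type cells. Gata6 was at 0.953 and 6.00 CPM in knockout and wild-type cells, and Afp was listed at 0 in both. Fibroblast markers, standing for feeder cells, had 1 of 16 members at least 2-fold lower, against 2.11% of all genes, and 10 below 0. Their median was -0.13, with a sum of 3337 CPM in knockout and 3099 CPM in wild-type cells. Fn1 made up most of that sum, and without it the other 15 were at 381 CPM in knockout and 432 CPM in wild-type cells. Prrx1 was lower, at 2.70 and 5.97 CPM, and Tagln was at 33.0 and 21.1 CPM in knockout and wild-type cells. Col1a1 was at 31.3 and 45.03 CPM and Thy1 at 13.1 and 15.1 CPM, and Lum was listed at 0 in knockout cells. Neuroectoderm markers had a median of -0.09 over 6 members, 4 of them below 0, with Nes at 126 CPM in knockout and 60.2 CPM in wild-type cells and Tubb3, on chromosome 8, at 17.6 and 35.6 CPM. Vascular markers had a median of -0.13 over 7, 4 of them below 0, with Erg at 1.495 and 0.719 CPM and Esam at 3.36 and 5.15 CPM in knockout and wild-type cells. Cdh5, below the floor, was at 0.173 and 0.638 CPM. Pluripotency markers had a median of -0.22 over 12, with Zfp42 at -2.05, Utf1 at -0.77, Tcl1 at -0.55 and Nanog at 0.49 furthest from 0. The part of these cell types in the Epha2 and Epha1 values was not tested, and in bulk RNA fewer cells of a type cannot be told apart from less RNA per cell.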

How the data were processed

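The submitters' processing notes name TopHat 1.0.13, CASAVA 1.6.0 and mm9, with no role for each. The authors deposited 1 table of 17827 rows whose header names RPKM, but the deposited values are log2 values, read as log2(x + 1) of read equivalents with no scaling by depth or length. Of nonzero x below 200, 85.7% in knockout and 85.9% in wild-type cells were whole numbers of bases within 0.05. A symbol with several rows took its highest row. Identity was computed on coding sequences, in place of the proteins first planned.

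Levels are CPM of the library total over genes. Ratios carry exact binomial intervals (scipy 1.17.1) conditioned on both libraries' rounded read equivalents, and levels exact Poisson intervals. Exon lengths came from GENCODE vM1, windows were aligned with minimap2 2.31 (at most 2 mismatches) and coding sequences with Biopython 1.88. Named were Setd2, all Eph receptors and ephrins, up to 4 genes per list with the largest ratio over the floor, and defining markers; neighbours of members were added later. The ratio procedure was run on simulated counts with planted differences and counting error only. That checks the arithmetic and says nothing of the spread between cultures. The members and lists were chosen with earlier results of these data known. One list and a gene of another are not reported here. Alternatives covered pseudocount, floor, threshold, scaling, summed rows and gene length.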

Additional observations from a re-analysis of the deposited data

How the results depend on the processing

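No paired analysis was possible because each genotype has 1 library, and leaving out a library would leave nothing to compare. The log2 ratios of the 9 members kept their sign under the 5 alternatives that can change them (both pseudocounts and 3 scalings), and 42 of 45 recomputed ratios stayed inside their counting interval. Epha1 ran from 1.17 to 1.24 and Epha2 from -1.16 to -1.10. All 3 ratios outside their interval were those of Epha2 under the 3 scalings. They were -1.15 for the median ratio set to 0, -1.16 for the trimmed mean and -1.13 for the upper quartile. At 1.5-fold 1 receptor was higher and 2 lower, beside 1004 and 916 of all genes (14.2% together), and at 3-fold 0 and 0, beside 62 and 93 (1.15% together), as the thresholds themselves imply. With a floor of 5 CPM 108 of all genes were higher. The Epha2 share was 54.2% in knockout and 74.9% in wild-type cells with no length scaling, and 58.0% and 79.0% with the longest annotated transcript.

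The recomputed list medians that left the typical counting interval of a member were primitive endoderm, -1.19 with a floor of 5 CPM, -1.02 with none and -1.19 without chromosomes 8 and Y, and pluripotency, -0.27 with the median ratio set to 0, -0.28 with the trimmed mean, -0.25 by the upper quartile and -0.14 without chromosomes 8 and Y. Leaving out those chromosomes was chosen after seeing the data. The depth limits what can be said of Epha3, Epha5, Epha6 and Epha10.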

Other observations

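Around the other 6 members, the 48 nearest genes over the floor, 8 for each, had medians between -0.32 and 0.12. Of the 48, 4 were past 2-fold in either direction, against 3.87% of all genes over the floor. The lowest median was that of the genes around Epha4, at -0.32, with 2 of 8 past 2-fold and Epha4 itself at 0.22. Of each 8, 3 were above 0 around Epha4, 7 around Epha7, 6 around Ephb1, 4 around Ephb2, 4 around Ephb3 and 2 around Ephb4.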
